A study of Homo sapiens with 16 samples.

Results

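The 10 genes described here carry the route from membrane lipid to thromboxane and the related eicosanoids: PLA2G4A, PTGS1, PTGS2, PTGES, PTGES3, TBXAS1, TBXA2R, ALOX12, ALOX5 and ALOX5AP. They were chosen by name, and each gene's estimated reads were summed over its transcripts in every library. All 10 were found among the 35052 genes with listed transcripts, and all 10 were among the 17559 genes that held enough reads to be tested. The cells were K562, a human chronic myeloid leukaemia line with erythroid features, exposed to 25 nM PMA (phorbol 12-myristate 13-acetate), a phorbol ester that activates protein kinase C and drives these cells towards a megakaryocyte-like state. Total RNA was depleted of ribosomal RNA and sequenced before PMA (0 h) and at 7 times after its addition, early ones at 0.5 and 1.5 h, middle ones at 3 and 6 h and late ones at 24, 48 and 72 h, with 2 libraries at each of the 8 time points and 16 in all. The series examined chromatin loops during this differentiation. K562 is a single established line, no library from vehicle-treated cells at the later times was analysed here, and the medium was renewed after the first day and again after the second, so hours of PMA and hours of culture cannot be told apart. Nothing in the labels says that the paired libraries came from separate cultures, so the p-values measure the spread between these libraries, which may be technical.

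Eicosanoids are signalling lipids made from arachidonic acid. Cytosolic phospholipase A2 (PLA2G4A) frees arachidonate from membranes, and the cyclooxygenases PTGS1 (COX-1) and PTGS2 (COX-2) turn it into prostaglandin H2. From there thromboxane synthase (TBXAS1) makes thromboxane A2, which acts on the receptor TBXA2R to activate platelets, while prostaglandin E synthases make prostaglandin E2. Lipoxygenases take arachidonate another way: ALOX12 is the platelet-type 12-lipoxygenase, and ALOX5, helped by its activating protein ALOX5AP, starts leukotriene synthesis in leukocytes. Platelets inherit COX-1, thromboxane synthase and 12-lipoxygenase from the megakaryocytes that shed them.

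Estimated reads per library numbered 27285773 to 54056289, and 3 reads, taken as the floor, were worth 0.0623 to 0.128 CPM (reads scaled to a common library size). The 0 h replicate 2 library had the shortest fitted fragments, 199.2 nt. The 10 fixed erythroid markers of K562 were all above the floor at 0 h, with summed levels of 5150 and 5580 TPM (transcript abundance per unit length, scaled to a fixed total). The sums were 2820 and 2370 TPM at 24 h, when 9 of the 10 were called lower, and 4760 and 3530 TPM at 72 h, when 5 were. TAL1 was called higher at both times. The 12 megakaryocyte markers summed to 48.0 and 80.8 TPM at 0 h and to 1780 and 1760 TPM at 72 h. Of the 12, 7 lay at or under the floor at 0 h, and GP9, PF4 and SELP still did at 72 h. Among the 7 that could be tested, 4 were called higher and 2 lower (ITGA2B and TUBB1) at 24 h. At 72 h 5 were called higher and none lower. Over all 17559 genes tested, 5571 were called higher and 4670 lower at 24 h, and 31.7% and 26.9% at 72 h. The 10 monocyte and granulocyte markers summed to 160 and 185 TPM at 0 h and to 280 and 345 TPM at 72 h, with the defining genes ELANE and S100A8 at the floor at both times; the median log2 fold change of the 8 tested was -0.29, opposite to the sum. The 7 mast cell and basophil markers summed to 5.45 and 4.92 TPM at 0 h and to 2.91 and 4.31 TPM at 72 h. In bulk RNA, fewer cells of a type and less RNA per cell cannot be told apart.

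The cyclooxygenases and the phospholipase that feeds them rose, and the 12-lipoxygenase fell to the read floor. The thromboxane receptor and the prostaglandin E synthases did not pass the test between 0 and 72 h, although PTGES3 did under some alternative settings. At 72 h 7 of the 10 genes passed the test against 0 h (edgeR quasi-likelihood test, adjusted p under 0.05), beside 58.6% of all genes tested. In all, 6 were higher (PTGS1, PTGS2, PLA2G4A, TBXAS1, ALOX5AP and ALOX5), beside 31.7% of all genes, and 1 was lower (ALOX12), beside 26.9%. The median fitted log2 fold change of the 10 genes at 72 h was 2.19, against -0.032 over all genes tested. It lies between the fitted values of TBXAS1 (1.16) and ALOX5AP (3.23). Setting ALOX12 and ALOX5 at their bounds could not move it, since each stays on the same side of it. ALOX5 lies above it through 1 of its 72 h libraries (79 and 1 reads).

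**Figure D1:**
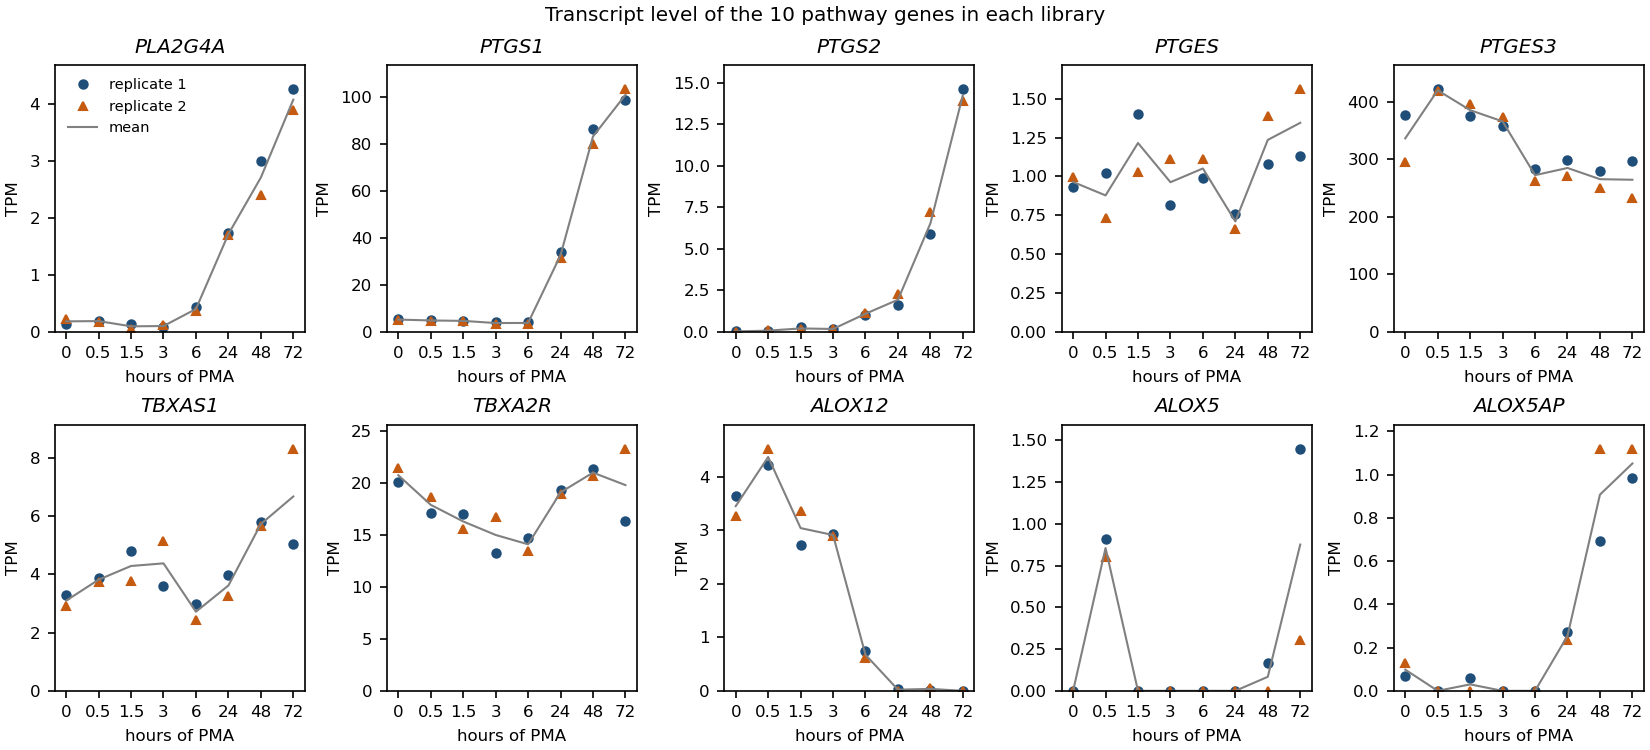
Transcript level (TPM, summed over each gene's transcripts) against hours of PMA, 1 panel per gene with its own linear axis; circles are replicate 1, triangles replicate 2 and lines the mean of both. PLA2G4A, PTGS1 and PTGS2 climb after 6 h, ALOX12 falls to at most 0.0502 TPM from 24 h on, and ALOX5 is at 0 TPM in most libraries.

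The calls built up with time. None of the 10 genes passed at 0.5 h, when 0.171% of all genes did (30 genes). Without 0 h replicate 1 that comparison called 3585 genes, PTGS2 and PTGES3 among them. PTGS2 alone passed at 1.5 h (17.1% of all genes). At 3 h PTGS2 and PTGES3 passed (42%), and at 6 h PTGS2, PLA2G4A and ALOX12 did (57.2%). The count was 4 at 24 h with PTGS1 added (58.3%) and 5 at 48 h with ALOX5AP added (54.3%). Between neighbouring times, none of the 10 genes passed from 0.5 to 1.5 h (5.77% of all genes) or from 1.5 to 3 h (25.1%). From 3 to 6 h 3 genes passed (41.2%), from 6 to 24 h 7 did (56.6%; 3 or 4 without either 6 h library or 24 h replicate 2), from 24 to 48 h PTGS1 and PTGS2 did (15%), and from 48 to 72 h none did (1.47%). Over the whole course 9 of the 10 genes varied, beside 82.9% of all genes, and PTGES did not pass by edgeR.

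PTGS2, the inducible cyclooxygenase, was near the read floor at the start and was the first of the 10 to pass the test. Its 0 h libraries held 2 and 0 reads, and the reads then numbered 5 and 7 by 0.5 h, 17 and 14 by 1.5 h, 23 and 15 by 3 h, 75 and 77 by 6 h, 130 and 231 by 24 h, 410 and 475 by 48 h, and 1020 and 643 by 72 h. Every library from 0.5 h on lay above both 0 h libraries. As levels per length, PTGS2 went from 0.0219 and 0 TPM at 0 h to 1.01 and 1.14 TPM at 6 h and 14.6 and 13.9 TPM at 72 h. With so few reads at 0 h the ratio of CPM is wide: 14.2 at 1.5 h (95% counting interval 3.62 to 123), 93.6 at 6 h (25.5 to 780) and 780 at 72 h (215 to 6440). The edgeR adjusted p was 0.00164 at 1.5 h, 4.94e-08 at 6 h and 2e-10 by 72 h. The rise came in steps, with log2 differences of 2.38 from 3 to 6 h (adjusted p = 1.6e-05), 0.61 from 6 to 24 h (0.04) and 1.51 from 24 to 48 h (0.000423), all by edgeR. The 6 to 24 h step did not pass with length-scaled counts or with protein-coding transcripts alone. Nor did it pass without either 24 h library, either 6 h library or, narrowly, any library of 1.5 or 48 h. Without 0 h replicate 1 the fitted 72 h log2 fold change was 12.68 and without 0 h replicate 2 it was 8.54, and both passed; the first is set against 0 reads, so its size depends on the fit.

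PLA2G4A, the calcium-dependent phospholipase that releases arachidonate, lies beside PTGS2 on chromosome 1 and first passed at 6 h, later than PTGS2. PTGS2 (ENSG00000073756) spans chr1:186671791-186680427 on the minus strand and PLA2G4A (ENSG00000116711) chr1:186828953-186988981 on the plus strand in GRCh38 (GENCODE v29), so they point away from each other with starts 148.5 kb apart. A single annotated gene, the non-coding PACERR, lies between them and was not analysed here. PLA2G4A held 8 and 13 reads at 0 h, 22 and 25 by 6 h, 92 and 170 by 24 h, 168 and 161 by 48 h, and 269 and 218 by 72 h; the libraries from 0.5 to 3 h held 3 to 13, 1 of them at the floor. The libraries from 6 h on did not overlap the earlier ones. In TPM the gene went from 0.141 and 0.219 at 0 h to 0.432 and 0.363 by 6 h, 1.73 and 1.70 by 24 h, and 4.26 and 3.90 by 72 h. The log2 fold change against 0 h was 1.45 (SE 0.36, edgeR adjusted p = 0.00286) at 6 h and 4.42 (SE 0.31, adjusted p = 3.15e-08) at 72 h, with 4.93 in replicate 1 and 4.02 in replicate 2. The steps from 3 to 6 h and from 6 to 24 h were 2.1 (edgeR adjusted p = 0.000493) and 1.83 (8.58e-05).

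The promoters of these neighbours are printed because both genes rose from 3 to 6 h, and that of ALOX12 because it fell in the same interval. Each run is the 250 bases before the RefSeq start in GRCh38.p14, read 5′ to 3′ on the gene's strand, and the capitals mark the motif letters found. The windows are chr1:186680424-186680673 (minus strand), chr1:186828699-186828948 (plus strand) and chr17:6995799-6996048 (plus strand).
PTGS2: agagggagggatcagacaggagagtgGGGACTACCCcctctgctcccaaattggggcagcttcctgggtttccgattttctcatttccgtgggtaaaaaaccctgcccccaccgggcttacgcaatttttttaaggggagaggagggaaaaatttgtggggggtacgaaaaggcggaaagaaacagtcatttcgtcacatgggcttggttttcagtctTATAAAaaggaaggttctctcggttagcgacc
PLA2G4A: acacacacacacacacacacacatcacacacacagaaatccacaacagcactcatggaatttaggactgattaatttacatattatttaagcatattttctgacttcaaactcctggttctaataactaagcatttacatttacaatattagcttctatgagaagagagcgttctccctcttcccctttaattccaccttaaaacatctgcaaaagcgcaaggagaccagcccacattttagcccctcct
ALOX12: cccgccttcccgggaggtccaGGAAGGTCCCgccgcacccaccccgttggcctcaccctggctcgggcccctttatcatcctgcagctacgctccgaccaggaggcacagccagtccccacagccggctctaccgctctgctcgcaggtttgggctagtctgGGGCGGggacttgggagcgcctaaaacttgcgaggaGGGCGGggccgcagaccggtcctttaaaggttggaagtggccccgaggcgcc
The motifs searched on both strands were AP-1 (TGANTCA) and CRE (TGACGT) letters, EGR (GCGNGGGCG), GATA factors (AGATAA) and ETS factors (CCGGAA), the NF-kB site (GGGANNNNCC), and SP1 (GGGCGG) with a TATA box (TATAAA). EGR and SP1 letters can overlap. The PTGS2 window holds the NF-kB letters 224 bases before the start, which 22.6% of the 35116 promoters in the table also hold, and a TATA box 32 bases before it, as 10.7% do. The PLA2G4A window holds none of these letters and has a GC content of 38.8%, against a median of 58.0% over all promoters. The ALOX12 window, at 68.4% GC, holds the NF-kB letters on the other strand and SP1 letters in 2 places; 42.6% of promoters hold SP1 letters. AP-1 letters, found in 6.57% of promoters, are in none of these 3 windows. These matches describe letters and not bound sites. Promoters of 9 of the 10 genes were in the table, and ALOX5 was not.

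PTGS1, the constitutive cyclooxygenase of platelets, was the most abundant of the rising genes. PTGS1 (ENSG00000095303, chr9:122370530-122395703, plus strand) lay between 3.18 and 5.25 TPM in all 10 libraries up to 6 h. It then stood at 33.9 and 31.1 TPM at 24 h, 86.3 and 79.7 TPM at 48 h, and 98.4 and 103 TPM at 72 h. The replicates stayed close, and no library from 24 h on overlapped the earlier ones. The reads behind these levels were 388 and 358 at 0 h and 7224 and 6182 at 72 h. The log2 fold change against 0 h was -0.29 at 6 h (SE 0.12, edgeR adjusted p = 0.0588), 2.51 at 24 h (5.87e-10), 3.79 at 48 h (1.14e-11) and 4.07 at 72 h (SE 0.12, adjusted p = 5.42e-12), or 16.8-fold. Both replicates gave nearly the same value at 72 h, 4.08 and 4.07. The steps were 2.80 from 6 to 24 h and 1.28 from 24 to 48 h (edgeR adjusted p = 9.21e-10 and 5.63e-06). The megakaryocyte markers summed to 914 and 812 TPM at 24 h, when 4 of the 7 tested were called higher and 2 lower. Their part in the result was not tested.

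The ratio of the cyclooxygenases varied between time points. At 0 h PTGS2 had too few reads for a ratio, and PTGS1 exceeded it in TPM 107-fold and 65.2-fold in the 0.5 h libraries, 17.5-fold and 36.1-fold after 1.5 h, and 23.0-fold and 23.4-fold after 3 h. The ratio was 4.11 and 2.80 in the 6 h libraries, 21.3 and 13.9 after 24 h, 14.7 and 11.1 after 48 h, and 6.73 and 7.37 after 72 h. PTGS1 was thus higher in every library, and the ratio was lowest at 6 h, after the PTGS2 step and before that of PTGS1. Up to 3 h it rests on 5 to 23 PTGS2 reads per library, and no test was made on it.

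**Figure D2:**
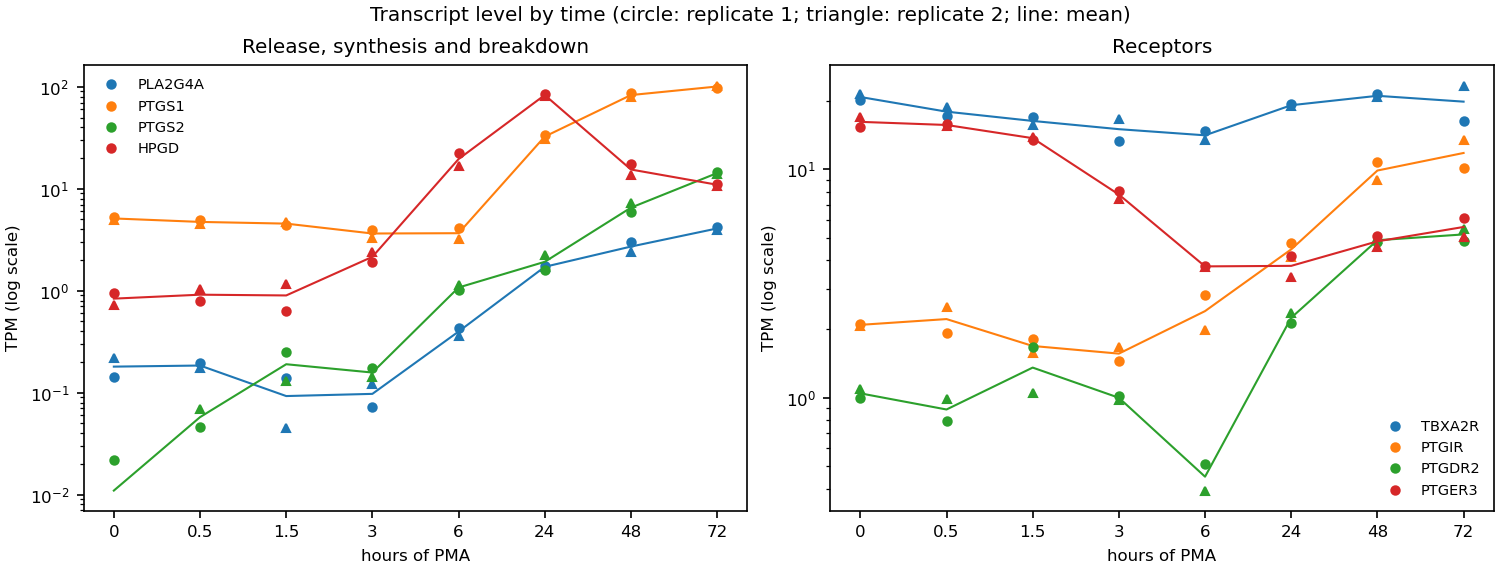
Level (TPM, log axis) against hours of PMA for the genes of release, synthesis and breakdown (left) and for 4 prostanoid receptors (right); circles are replicate 1, triangles replicate 2 and lines the mean, and a library at 0 TPM has no point. PTGS2 and PLA2G4A rise by 6 h and PTGS1 by 24 h, while HPGD peaks at 24 h and then falls.

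**Figure D3:**
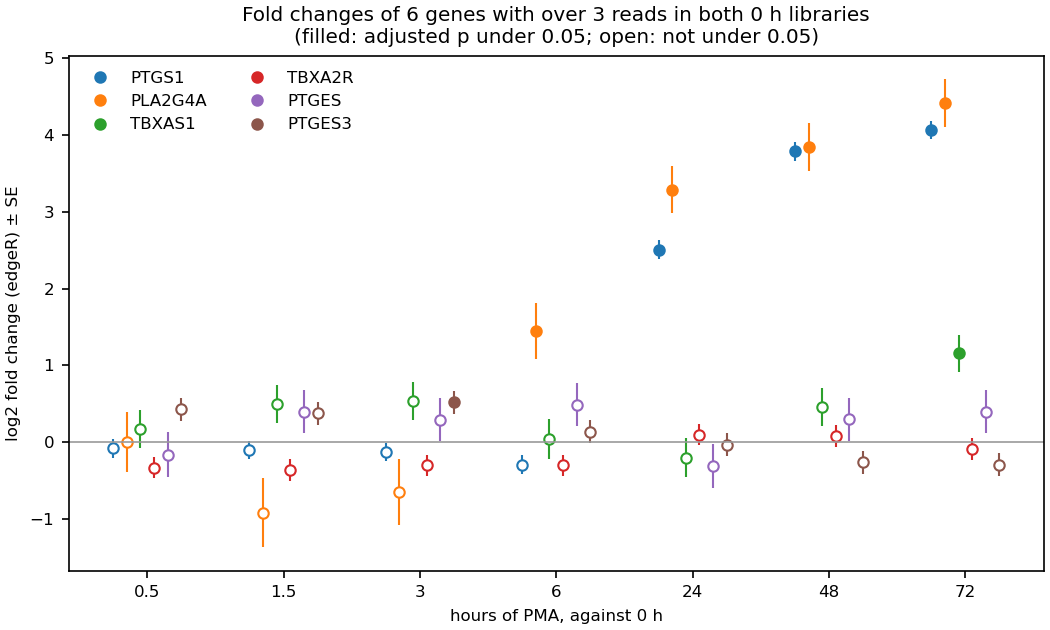
Fitted log2 fold change against 0 h (edgeR, bars are ± SE) at each later time for 6 of the 10 genes that were above the read floor at 0 h; filled points have an adjusted p under 0.05. PTGS1 and PLA2G4A exceed 3.5 at 48 and 72 h, whereas TBXA2R, PTGES and PTGES3 stay within 0.6 of 0.

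The prostaglandin E synthases passed the test in few comparisons. PTGES3 (p23, ENSG00000110958, chr12:56663341-56688408), a cytosolic synthase that is also an HSP90 co-chaperone, was the most abundant of the 10 genes, at 232 to 421 TPM. It was 377 and 295 TPM at 0 h, 358 and 373 TPM at 3 h and 296 and 232 TPM at 72 h, so the groups overlap in TPM. In CPM, the scale nearer to the test, it was 405 and 283 at 0 h and 504 and 480 at 3 h, which do not overlap. At 72 h it was 321 and 242 CPM, which overlaps 0 h. The log2 fold change was 0.52 at 3 h (SE 0.15, edgeR adjusted p = 0.014), while the 72 h value was -0.29 (SE 0.15, adjusted p = 0.116). With scaling to total counts the 3 h value did not pass and the 72 h value did. The 72 h value also passed with length-scaled counts and once a trend with GC content was removed. Without 0 h replicate 2 the 3 h value was 0.28 and no longer passed (adjusted p = 0.153), and the 72 h value was -0.53 and passed (adjusted p = 0.00579). Without 0 h replicate 1 the values were 0.80 and -0.01, and without 3 h replicate 1 the 3 h value did not pass either (adjusted p = 0.0634). In 0 h replicate 2 the transcript PTGES3-204 took 34.0% of the gene's TPM, against 0.83% to 4.17% in the other 15. PTGES (ENSG00000148344, chr9:129738331-129753047), the inducible microsomal synthase usually coupled to COX-2, stayed between 0.661 and 1.56 TPM, on 27 to 56 reads per library. It differed between 6 and 24 h, by -0.80 on the log2 scale (edgeR adjusted p = 0.0286), and at 72 h by 0.40 against 0 h (SE 0.28, adjusted p = 0.239). Its protein-coding transcript PTGES-201 held 0 reads in 12 of the 16 libraries, and the rest of its reads were assigned to a processed transcript. The call was lost without either 24 h library (edgeR adjusted p = 0.0786 and 0.0954) and without 6 h replicate 2 (0.17). It was also lost by DESeq2, with scaling to total counts and with length-scaled counts. Protein-coding transcripts alone, an alternative chosen after seeing the data, allow no comparison here. PTGES-201 held 0 reads in all 6 h and 24 h libraries.

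The thromboxane branch was uneven. Thromboxane synthase, TBXAS1 (ENSG00000059377, chr7:139777051-140020325), held 33 to 103 reads per library. It stood at 3.28 and 2.91 TPM at 0 h, 2.99 and 2.44 TPM at 6 h, 5.79 and 5.66 TPM at 48 h, and 5.03 and 8.31 TPM at 72 h. Both 72 h libraries lay above both 0 h libraries, and the log2 fold change was 1.16 (SE 0.24, edgeR adjusted p = 0.000878). Protein-coding transcripts took 1.1% to 25.8% of the gene's TPM and 1 to 47 reads. They held 11 and 25 of its 34 and 48 reads at 0 h, and 47 and 36 of its 93 and 103 reads at 72 h. With protein-coding transcripts alone the 72 h value was 1.04 and did not pass (edgeR adjusted p = 0.219). Most of the remaining TPM lay on TBXAS1-203, annotated to nonsense-mediated decay, and on processed transcripts. TBXAS1 also overlaps HIPK2 on the opposite strand, but no listed TBXAS1 transcript shares exon bases with another gene. Whether the counting used strand is not given in the sources used here.

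TBXA2R, the receptor for thromboxane A2 (ENSG00000006638, chr19:3594506-3606840), was present before PMA and passed at no time against 0 h in the main edgeR fit of all libraries. With a block for replicate number added to that fit, it passed at 1.5, 3 and 6 h. Other settings called it too, among them scaling to total counts at 3 and 6 h. The block with a GC trend removed called it at 24 and 48 h. It stood at 20.1 and 21.4 TPM at 0 h, 14.7 and 13.5 TPM at 6 h, 19.3 and 18.9 TPM at 24 h, and 16.3 and 23.3 TPM at 72 h, where the libraries spanned the 0 h values. The log2 fold change at 72 h was -0.09 (SE 0.14, edgeR adjusted p = 0.593), and its sign turned in 4 alternatives, to between 0.07 and 0.18. The rise from 6 to 24 h was 0.40 (edgeR adjusted p = 0.0286) and was lost, at 0.06, once a trend with GC content was removed. With length-scaled counts or protein-coding transcripts alone it did not pass either. It also did not pass without 24 h replicate 2 (edgeR adjusted p = 0.192), 6 h replicate 1 (0.122) or 6 h replicate 2 (0.0862). Its transcripts moved more than its total. TBXA2R-201 took 21.0% to 55.4% of the gene's TPM in the 10 libraries up to 6 h and 57.5% to 76.5% in the 6 later ones, and TBXA2R-204 went from 44.6% to 78.2% down to 19.9% to 37.7%. Neither pair of ranges overlapped, and no test was made on these estimated shares.

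**Figure D4:**
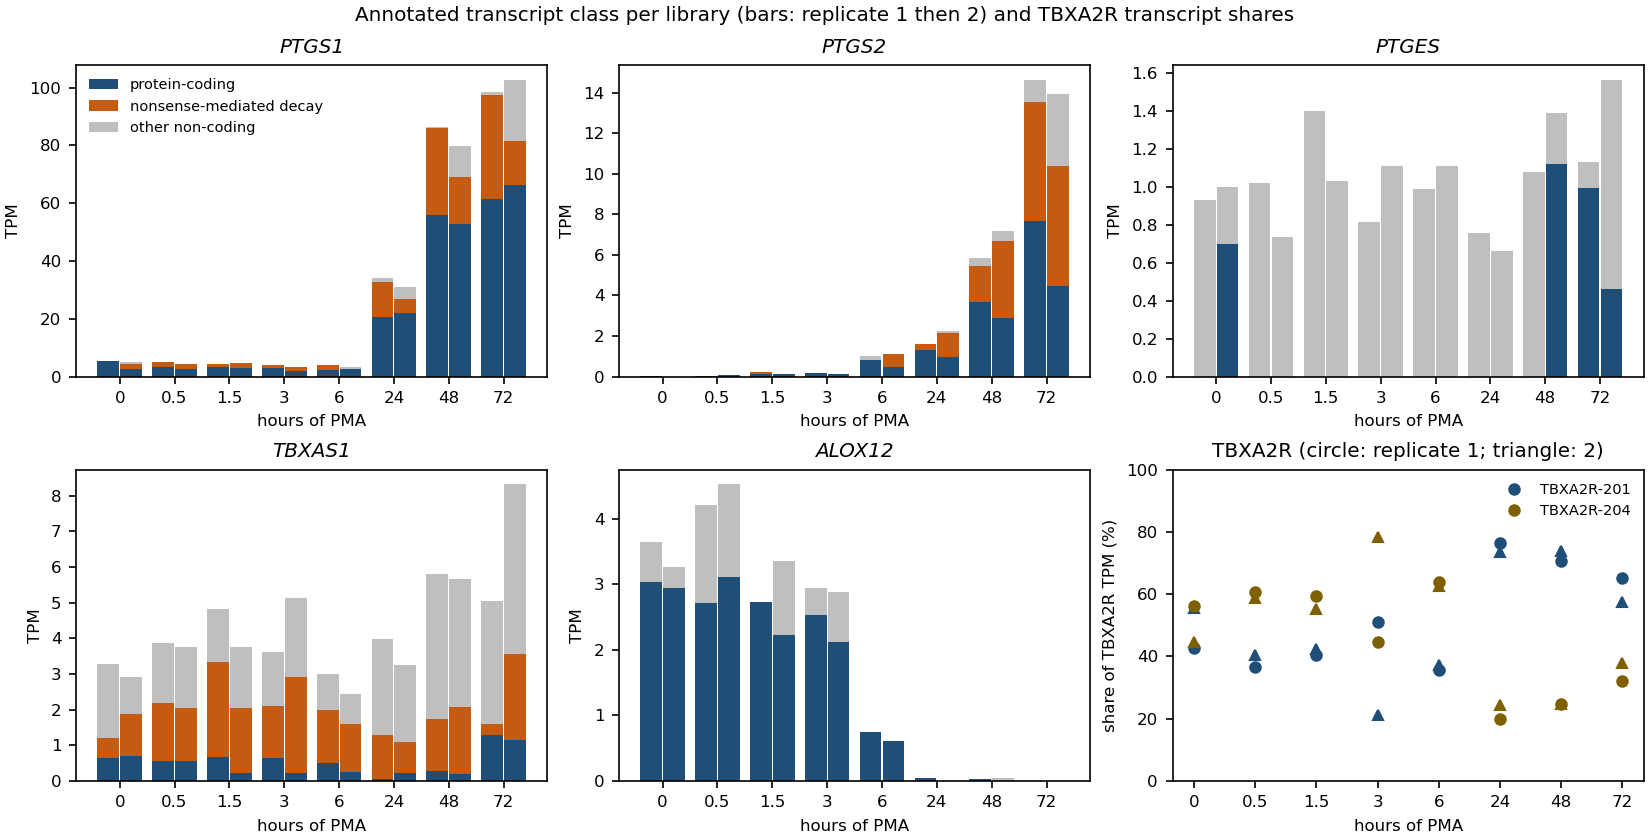
Stacked bars give TPM per library by the annotated class of transcript for PTGS1, PTGS2, PTGES, TBXAS1 and ALOX12 (replicate 1 then 2 at each time), and the last panel gives the share (%) of TBXA2R TPM on its main transcripts, with circles for replicate 1 and triangles for replicate 2. Coding transcripts take a minor part of TBXAS1, and TBXA2R-201 exceeds TBXA2R-204 from 24 h on.

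The cyclooxygenase RNA was also not all assigned to coding forms. Protein-coding transcripts took 55.8% to 100% of PTGS1 TPM (median 64.8%), and a transcript annotated to nonsense-mediated decay took 14.7% to 36.3% in the 6 libraries from 24 h on. For PTGS2 the coding transcript PTGS2-201 took 32.2% to 83.6% in those 6 libraries, where it stood at 0.988 to 7.65 TPM, against 0 to 0.819 TPM up to 6 h. The coding form of PTGS2 alone therefore separates late from early libraries. The split between transcripts of 1 gene is an estimate and differed between replicates.

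ALOX12, the platelet-type 12-lipoxygenase (ENSG00000108839, chr17:6996065-7010736), was the only 1 of the 10 called lower at 72 h in the main fit, and it ended at the floor. It held 128 to 186 reads in the 8 libraries up to 3 h, 31 and 34 by 6 h, 2 and 0 by 24 h, 1 and 1 by 48 h, and 0 in both 72 h libraries. In TPM that is 3.64 and 3.27 at 0 h, 0.745 and 0.605 at 6 h and at most 0.0502 in any library from 24 h on. The libraries from 6 h on did not overlap the earlier ones. The log2 fold change was -1.90 at 6 h (SE 0.27, edgeR adjusted p = 4.62e-05), with -1.81 and -1.99 in the replicates. At 24 h the 0 h level was 187 times higher (95% counting interval 51.2 to 1550), and at 72 h ALOX12 was at least 53.2-fold lower, set against 3 reads per library (edgeR adjusted p = 1.47e-08). The step from 3 to 6 h was -1.86 (edgeR adjusted p = 0.000112). The antisense gene ALOX12-AS1 shares exon bases with ALOX12 and was not analysed here.

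The 5-lipoxygenase pair was near the read floor. ALOX5AP (ENSG00000132965, chr13:30713478-30764426), the membrane protein that presents arachidonate to 5-lipoxygenase, held at most 2 reads in each of the 10 libraries up to 6 h. It then held 4 and 6 reads by 24 h, 10 and 19 by 48 h, and 16 in each 72 h library, or 0.983 and 1.12 TPM. All 6 later libraries lay above the earlier ones. The ratio of CPM was 8.96 at 48 h (95% counting interval 2.78 to 46.0, edgeR adjusted p = 0.00402) and 10.0 at 72 h (3.13 to 51.0, adjusted p = 0.00242). The monocyte and granulocyte markers went both ways, with 3 of 8 tested higher (CD68, CSF1R and MPO) and 3 lower (CSF3R, FCGR1A and LYZ) at 72 h, and their part in the result was not tested. ALOX5 (ENSG00000012779, chr10:45374176-45446119), the leukotriene-forming lipoxygenase itself, was at or under 3 reads in 12 of the 16 libraries. The other 4 were both 0.5 h libraries, with 53 and 44 reads, 48 h replicate 1 with 8 and 72 h replicate 1 with 79, while 72 h replicate 2 held 1. Its 72 h call (edgeR adjusted p = 0.0268) thus rests on 1 library, and without it the adjusted p was 0.449; without a 0 h library it was 0.0812 or 0.0818, and by DESeq2 0.277. Only 2 of its 8 annotated transcripts are among those listed. The genes near the floor were ALOX5 (12 libraries at or under 3 reads), ALOX5AP (10), ALOX12 (6), PTGS2 (2) and PLA2G4A (1).

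Set in order by TPM, which compares genes per length, the 10 genes changed places. At 0 h the means ran PTGES3 336, TBXA2R 20.8, PTGS1 5.12, ALOX12 3.45, TBXAS1 3.10, PTGES 0.964, PLA2G4A 0.180, ALOX5AP 0.0983, PTGS2 0.0109 and ALOX5 0. ALOX12 and TBXAS1 overlapped between libraries, as did PTGS2 and ALOX5. At 72 h they ran PTGES3 264, PTGS1 101, TBXA2R 19.8, PTGS2 14.3, TBXAS1 6.67, PLA2G4A 4.08, PTGES 1.35, ALOX5AP 1.05, ALOX5 0.874 and ALOX12 0. ALOX5AP and ALOX5 overlapped. PTGS2 had moved ahead of thromboxane synthase and PTGS1, already above it at 0 h, ahead of the receptor.

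The other genes of the pathway did not share one direction. At 72 h 2 of the 10 other phospholipases and diacylglycerol lipases tested were higher (DAGLA and PLA2G15). In the same list 3 were lower (PLA2G12A, PLA2G4B and PLD1), and the median log2 fold change was -0.17. DAGLA, which makes the endocannabinoid 2-arachidonoylglycerol, held 3 and 5 reads at 0 h and 441 and 518 at 72 h (log2 fold change 6.78, SE 0.36, edgeR adjusted p = 1.84e-09). PLD1, a phospholipase D, went from 57.9 and 45.9 TPM at 0 h to 6.56 and 6.36 TPM at 6 h (-2.87, SE 0.10, adjusted p = 2.73e-11 by edgeR). PLA2G12A, a secreted phospholipase, went from 58.6 and 57.8 TPM to 11.5 and 12.2 TPM at 72 h. Of 12 genes that make, activate or re-esterify arachidonate, 6 were higher at 72 h (ACSL1, ACSL4, ACSL5, ACSL6, FADS2 and MBOAT2) and 3 lower (ELOVL5, FADS1 and LPCAT3), with a median of 0.62. ACSL5, a long-chain acyl-CoA synthetase, stood at 1.17 and 0.688 TPM at 0 h and 16.4 and 16.6 TPM at 6 h. FADS1, the desaturase that completes arachidonate, went from 483 and 439 TPM at 0 h to 71.3 and 54.6 TPM at 24 h and 81.6 and 85.2 TPM at 72 h. These groups therefore held members of both directions, beside 31.7% higher and 26.9% lower over all genes.

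**Figure D5:**
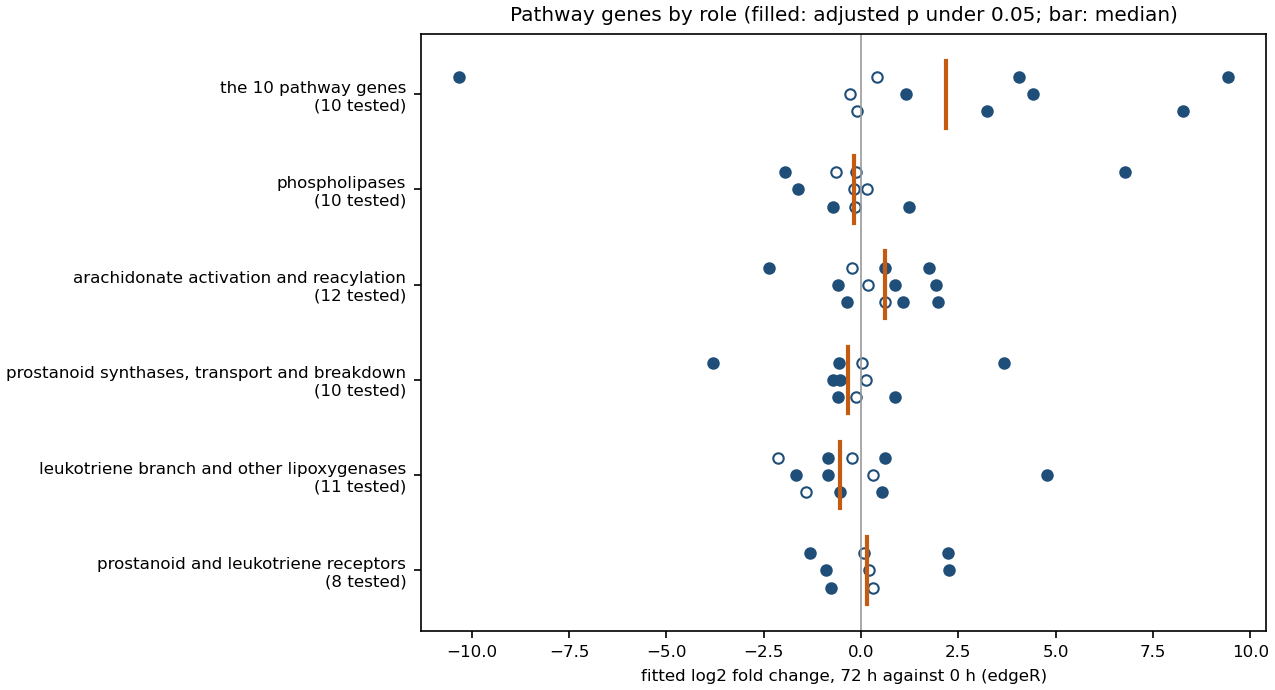
Fitted log2 fold change at 72 h against 0 h (edgeR) for each tested gene of the 10 described here and of 5 lists by role; filled points have an adjusted p under 0.05 and the vertical bar is the list's median. The medians of the 5 lists lie between -0.54 and 0.62, with members on both sides of 0; the extreme points of the 10 genes are those near the read floor.

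Among the prostanoid synthases, transporters and breakdown enzymes, 2 of 10 tested were higher at 72 h (CBR1 and HPGD) and 5 lower (PTGDS, PTGES2, PTGIS, PTGR2 and SLCO2A1), with a median of -0.35. PTGES2 did not pass once the GC trend was removed (edgeR adjusted p = 0.148). HPGD, the dehydrogenase that inactivates prostaglandins, moved most: it stood at 0.942 and 0.730 TPM at 0 h, 22.2 and 16.9 TPM at 6 h, 84.6 and 81.5 TPM at 24 h, 17.3 and 13.6 TPM at 48 h, and 11.2 and 10.7 TPM at 72 h. Its 24 h log2 fold change was 6.66 (SE 0.23, edgeR adjusted p = 2.13e-11), or 7.30 over protein-coding transcripts alone. HPGD was thus highest at 24 h, before PTGS1 and PTGS2 reached their highest levels. PTGDS, a prostaglandin D synthase, held 58 and 90 reads at 0 h and 3 and 7 at 24 h (log2 fold change -4.18, or -5.35 over protein-coding transcripts alone). ABCC4, a transporter that exports prostanoids, stood at 45.6 and 41.5 TPM at 0 h and 36.3 and 35 TPM at 72 h (edgeR adjusted p = 0.224).

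In the leukotriene branch and the other lipoxygenases, 3 of 11 tested were higher at 72 h (ALOXE3, GGT1 and MGST3) and 4 lower (COTL1, GGT5, LTA4H and MGST2), with a median of -0.54. COTL1, an actin-binding protein that also binds 5-lipoxygenase, went from 165 and 187 TPM at 0 h to 54.1 and 48.9 TPM at 24 h, and GGT5, which trims leukotriene C4, from 179 and 187 reads to 81 and 123 (log2 fold change -1.16, or -4.10 over protein-coding transcripts alone). Of 8 other prostanoid and leukotriene receptors tested, 2 were higher (PTGDR2 and PTGIR) and 3 lower (LTB4R, LTB4R2 and PTGER3), with a median of 0.14. PTGIR, the prostacyclin receptor, stood at 2.1 and 2.07 TPM at 0 h and 10.1 and 13.5 TPM at 72 h (log2 fold change 2.27, SE 0.18, edgeR adjusted p = 1.22e-07). Over its protein-coding transcripts alone that value was 4.92. PTGDR2, a prostaglandin D2 receptor, dipped to 0.510 and 0.392 TPM at 6 h and stood at 4.88 and 5.50 TPM at 72 h, from 1.00 and 1.09 TPM at 0 h. PTGER3, a prostaglandin E2 receptor, went from 15.4 and 16.9 TPM at 0 h to 3.77 and 3.75 TPM at 6 h. CYSLTR1, a cysteinyl leukotriene receptor, held 2200 and 1102 reads at 0 h, so its 72 h value of 0.30 (adjusted p = 0.39 by edgeR) lay within that spread.

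The genes with courses most like those of the 10 were found by Pearson's r of the mean log2 CPM over the 8 time points, as a description with no test; points share libraries and depth. IL16 (r = 0.9982) and TDRKH (0.998) were nearest to PTGS1, and AP1S2 (0.9917) and TTLL7 (0.9867) to PTGS2. TPRG1L (0.9978) and TMEM273 (0.996) were nearest to PLA2G4A, and NMU (0.9993) and NUP62CL (0.9986) to ALOX12. NRGN (0.9935) and DENND2B (0.9869) were nearest to ALOX5AP. For TBXAS1 the nearest was HCLS1 (0.9422), and for ALOX5 no candidate exceeded ZNF594 at 0.7699.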

How the data were processed

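Total RNA from 16 libraries of K562 was measured. The deposited tables hold estimated counts and TPM per transcript, per the file headers; Salmon is named in the submitters' processing notes, and its version, transcript set and strand setting are not given in the sources used here. Of 177456 transcripts, 167027 matched GENCODE v29 by identifier. Estimated counts were summed per gene and rounded, and TPM summed. edgeR 4.0.16 in R 4.3.3 (TMM scaling, filterByExpr, quasi-likelihood F-test, Benjamini-Hochberg adjustment over 17559 genes) was fitted once to all 8 time points and checked on simulated data; with 2 libraries each, no exact permutation test of 1 gene can reach 0.05. Ratios with 3 or fewer reads carry exact 95% binomial intervals, which cover counting error only. DESeq2 1.42.0, other scalings, filters, a GC trend and left-out libraries were alternatives. Pathway genes beyond the 10 were named if, within a list, they changed most or were most abundant; others are named as the members of a count, and values of PTGER3 and later times of HPGD were added after they were seen. The 10 genes and the lists were chosen with earlier results of these data known. PLA2G10 was not analysed here.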

Additional observations from a re-analysis of the deposited data

Results flagged for a closer look

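Changes against 0 h differed between neighbouring time points in 12 cases (edgeR quasi-likelihood test of the difference, adjusted p under 0.05), given here as log2 differences. PTGS1 gained 2.80 from 6 to 24 h and 1.28 from 24 to 48 h. PTGS2 gained 2.38 between 3 and 6 h, 0.61 between 6 and 24 h (lost under several alternatives) and 1.51 between 24 and 48 h. PLA2G4A gained 2.1 from 3 to 6 h and 1.83 from 6 to 24 h. ALOX12 changed by -1.86 from 3 to 6 h and by a fitted -5.43 from 6 to 24 h, where its reads reached the floor. ALOX5AP gained a fitted 5.14 from 6 to 24 h, from 0 reads in both 6 h libraries to 4 and 6. Set against 3 reads per library the gain was at least 1.08-fold, so the fitted size depends on the fit. The call was lost by DESeq2 and without either 6 h library or 24 h replicate 2. TBXA2R gained 0.40 and PTGES changed by -0.80 from 6 to 24 h, and both calls were lost under several alternatives.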

How the results depend on the processing

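The counts of the 10 genes that passed were 0, 1, 2, 3, 4, 5 and 7 from 0.5 to 72 h. With at least 10 reads in every library, which leaves fewer of the 10 genes to test, they were 0, 0, 1, 0, 1, 1 and 2, then 0, 3 and 1 for the steps ending at 6, 24 and 48 h and 4 over the course. With no low-count filter 2 passed at 0.5 h (1538 of all genes) and 2 at 1.5 h, and the steps ending at 1.5 and 72 h had 2 each. Under a replicate block 2 passed at 1.5 h, 5 at 6 h, and 1 in each of the steps ending at 1.5 and 72 h; with the block and GC trend removal, 2 and 2 for those steps. The block added TBXA2R at 1.5, 3 and 6 h and PTGS1 at 6 h, and removed none at these times. Deviations of same-numbered libraries correlated at over 0.1 in 24 of 28 pairs of times (r from -0.296 to 0.598), but not in all, and the labels do not say that a number marks a shared culture, so the block was kept as an alternative. Removing the GC trend alone gave 1, 4 and 1 for the steps ending at 1.5, 48 and 72 h. Length-scaled counts gave 1 from 0.5 to 1.5 h and 4 from 6 to 24 h, where protein-coding transcripts alone gave 4 and a threshold of 0.01 gave 3 (and 1 at 3 h). DESeq2 gave 1 from 48 to 72 h. Scaling to total counts gave 5 at 6 h and moved the median of all genes by -0.12 at 1.5 h to -0.35 at 6 h. Leaving out 1 library gave, in the order of the times, 0 to 2, 1 to 3, 2 to 3, 3 to 5, 4, 5 to 7 and 6 to 7; for the steps it gave 0 to 1, 0, 3 to 4, 3 to 7, 2 and 0 to 1, and 8 to 9 over the course. TBXA2R at 72 h turned to 0.18 with GC removed (0.18 with the block as well), and ranged from -0.33 to 0.12 over the left-out libraries (0.07 with the 0 h replicate 2 library left out, 0.12 with 72 h replicate 1); CYSLTR1 ranged from -0.09 (0 h replicate 2 left out) to 0.84. The causes were not tested. Read numbers limit the fold changes of ALOX5AP, of ALOX12 from 24 h on and of PTGS2 against 0 h.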
